A study of Mus musculus with 12 samples.

Results

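*Hspa1a*, *Hspa1b*, *Hspa8*, *Hsph1*, *Hsp90aa1*, *Hsp90ab1*, *Dnajb1*, *Dnaja1*, *Hspb1* and *Hspd1* encode heat shock chaperones of the cytosol and, for *Hspd1*, of the mitochondrion. They were taken by gene symbol, as 10 of the 38911 genes in the files, after the counts of all RefSeq transcripts of a gene had been added up. All 10 passed the filter on low counts, which kept 16966 genes. The RNA came from gastruloids, aggregates of mouse embryonic stem (ES) cells that form the cell types of the gastrulating embryo, grown from 200 E14TG2a cells each and collected on day 4. All groups were made from this 1 ES cell line, kept in 2i and LIF, and each library pools the gastruloids of 1 treatment and 1 replicate. Per the study's methods, gastruloids treated side by side grew in the same plate. Treatment ran from day 3 to day 4 with 1X glucose (21.25 mM), no glucose (0X), 3X glucose (63.75 mM), or 5 mM 2-DG in 1X glucose medium. 2-DG is 2-deoxy-D-glucose, a glucose and mannose analog that inhibits hexokinase. Each of the 4 groups holds 3 polyA libraries, 1 from each of ES cell passages 13, 15 and 16.

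Heat shock chaperones bind unfolded proteins and let them fold, keep them soluble or pass them on for degradation. HSP70 proteins work in cycles of ATP hydrolysis that J proteins start and that nucleotide exchange factors such as the HSP110 protein Hsph1 end, and HSP90 takes over many clients, among them kinases and steroid receptors, from HSP70. *Hspa8* and *Hsp90ab1* are expressed in most cells without stress, whereas *Hspa1a* and *Hspa1b* encode HSP70 proteins that are strongly induced by heat and other proteotoxic stress through the transcription factor Hsf1. Hsf1 binds heat shock elements, inverted repeats of the unit GAA. The endoplasmic reticulum (ER) has its own relatives of these proteins, such as Hspa5 (BiP), Hsp90b1 (GRP94) and Hyou1, whose genes respond to unfolded protein in the ER and not to that in the cytosol.

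The promoters of the genes with the largest change (*Hspb1*) and of the classical heat-inducible pair (*Hspa1a* and *Hspa1b*) are shown because they hold such repeats. The sequences are those of RefSeq for the 250 bases before the start site in GRCm38.p6, 5' to 3' on the strand of the gene, and capitals mark every match to GAANNTTC or TTCNNGAA, a pair of inverted units searched on both strands. The *Hspb1* window is chr5:135887669-135887918 on the plus strand, the *Hspa1a* window chr17:34972157-34972406 and the *Hspa1b* window chr17:34959239-34959488, both on the minus strand.
Hspb1: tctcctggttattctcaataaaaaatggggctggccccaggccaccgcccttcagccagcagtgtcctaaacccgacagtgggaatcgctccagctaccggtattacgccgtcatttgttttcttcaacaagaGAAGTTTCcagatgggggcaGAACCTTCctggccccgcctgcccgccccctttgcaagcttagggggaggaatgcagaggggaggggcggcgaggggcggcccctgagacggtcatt
Hspa1a: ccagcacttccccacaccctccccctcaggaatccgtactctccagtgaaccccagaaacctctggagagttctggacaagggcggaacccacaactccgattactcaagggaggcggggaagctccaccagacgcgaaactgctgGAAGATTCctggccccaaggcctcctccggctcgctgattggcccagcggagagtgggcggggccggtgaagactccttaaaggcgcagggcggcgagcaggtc
Hspa1b: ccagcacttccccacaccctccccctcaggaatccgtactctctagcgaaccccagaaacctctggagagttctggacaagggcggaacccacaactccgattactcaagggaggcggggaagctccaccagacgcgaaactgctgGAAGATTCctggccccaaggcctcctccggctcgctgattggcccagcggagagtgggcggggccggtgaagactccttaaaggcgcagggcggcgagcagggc
In *Hspb1* the matches GAAGTTTC and GAACCTTC began 117 and 97 bases before the start site. The windows of *Hspa1a* and *Hspa1b* were identical at 247 of 250 bases (98.8%) and both had GAAGATTC 104 bases before the start. Promoter windows were found for 7 of the 10 genes, all but *Hspa8*, *Hsp90aa1* and *Hsp90ab1*. Of the 7, 6 held a pair of units within 250 bases before to 50 bases after a start site. Of the 27025 genes in the table, 17.0% did. The 7 were chosen as heat shock genes, count the near-identical *Hspa1a* and *Hspa1b* as 2, and some have several windows. Shares of the 7 and of all genes are thus not like for like. A run of 3 alternating units with 2 bases between neighbours, which contains the shorter motif, was found in 2 of the 7, against 0.662% of all genes. These were *Hsph1*, with TTCTGGAAAGTTC after the start site, and *Hspd1*, with the overlapping runs TTCCGGAAGGTTC and GAAGGTTCTAGAA from 144 bases before the second of its start sites. In *Dnaja1*, GAAAATTC lay 124 bases before the start, and the windows of *Dnajb1* held no match.

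The libraries held 31902471 to 45956080 counts, and the 10 chaperones took 0.757% to 0.848% of them. The range was 38439471 to 45956080 counts in 1X glucose and 33666332 to 37496932 in 2-DG. It was 31902471 to 34266196 in 0X and 33336139 to 40744645 in 3X glucose. Every 1X library was thus deeper than every 2-DG and 0X library, and the part of depth in the chaperone values was not tested. The gastruloid labels were checked on marker lists by the range of their summed level in CPM (library size scaled by TMM factors in edgeR). The primitive streak and mesoderm markers, all 12 of which were detected, summed to 1594 to 2215 CPM in 1X glucose and 1080 to 1852 CPM in 2-DG. These sums overlapped, yet 4 of the 12 genes were called lower (adjusted p under 0.05, edgeR's quasi-likelihood test) and none higher. *Mixl1* fell by 3.89, *Wnt3a* by 2.72, *T* by 1.57 and *Hes7* by 0.74 on the log2 scale. Over all genes tested, 8.51% were called lower and 9.12% higher in 2-DG, and these shares also stand beside the other marker lists. The 8 neural markers summed to 31.4 to 63.8 CPM in 1X glucose and 85.9 to 182 CPM in 2-DG, and the 9 pluripotency markers to 39.4 to 53.4 CPM and 62.0 to 77.3 CPM. Endoderm markers (6) summed to 30.6 to 199 CPM in 1X glucose and 28.9 to 82.2 CPM in 2-DG, and endothelial and blood markers (6, of which 1 was at 0 in all libraries) to 1.71 to 8.73 CPM and 1.25 to 1.55 CPM. Fibroblast markers (8) and immediate early genes (12), which respond to handling, overlapped between these groups, at 11.3 to 15.1 against 10.7 to 14.5 CPM and at 137 to 144 against 137 to 148 CPM. Of the 9 immediate early genes tested, *Egr1* fell by 2.54 and *Atf3* and *Klf6* rose by 1.91 and 0.50 on the log2 scale. The neural and pluripotency sums were thus higher and the endothelial and blood sums lower in 2-DG without overlap. Single genes did not all follow these sums. Of the 8 neural genes, 5 were called higher and *Nkx6-1* lower (log2 fold change -1.43). Of the 8 pluripotency genes tested only *Tfcp2l1* was called (1.05), and of the 4 endothelial and blood genes tested none. With the passage as a block, 6 neural and 5 pluripotency genes were called higher, against 21.1% of all genes. *Nkx6-1* and 3 endothelial and blood genes were then called lower, against 20.2%. The part of the cell makeup in the chaperone values was not tested. In bulk RNA, fewer cells of a type and less RNA per cell cannot be told apart.

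Per length of 1 transcript, the order of the levels in 1X glucose was *Hsp90ab1* (1234 CPM per kilobase), *Hspa8* (722), *Hsp90aa1* (405), *Hspd1* (384), *Dnaja1* (96.3), *Hsph1* (59.6), *Dnajb1* (27.5), *Hspb1* (1.37), *Hspa1b* (0.952) and *Hspa1a* (0.594 CPM per kilobase). The transcript was the most abundant RefSeq transcript that GENCODE M21 also lists. It held 24.8% of the counts of *Hspd1* and 43.6% of those of *Hsph1*, whose most abundant transcripts it was not, and 88.2% or more of those of each other gene. Neighbours in this order did not overlap between their 3 libraries, except *Hsp90aa1* with *Hspd1* and *Hspb1* with *Hspa1b*. *Hspb1* and the heat-inducible *Hspa1a* and *Hspa1b* were thus the 3 lowest of the 10. Without regard to length, *Hspa1a* and *Hspa1b* were at 1.56 to 2.10 CPM and 2.17 to 3.31 CPM in 1X glucose, whereas their constitutive relative *Hspa8* lay at 1707 to 1765 CPM.

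**Figure D1:**
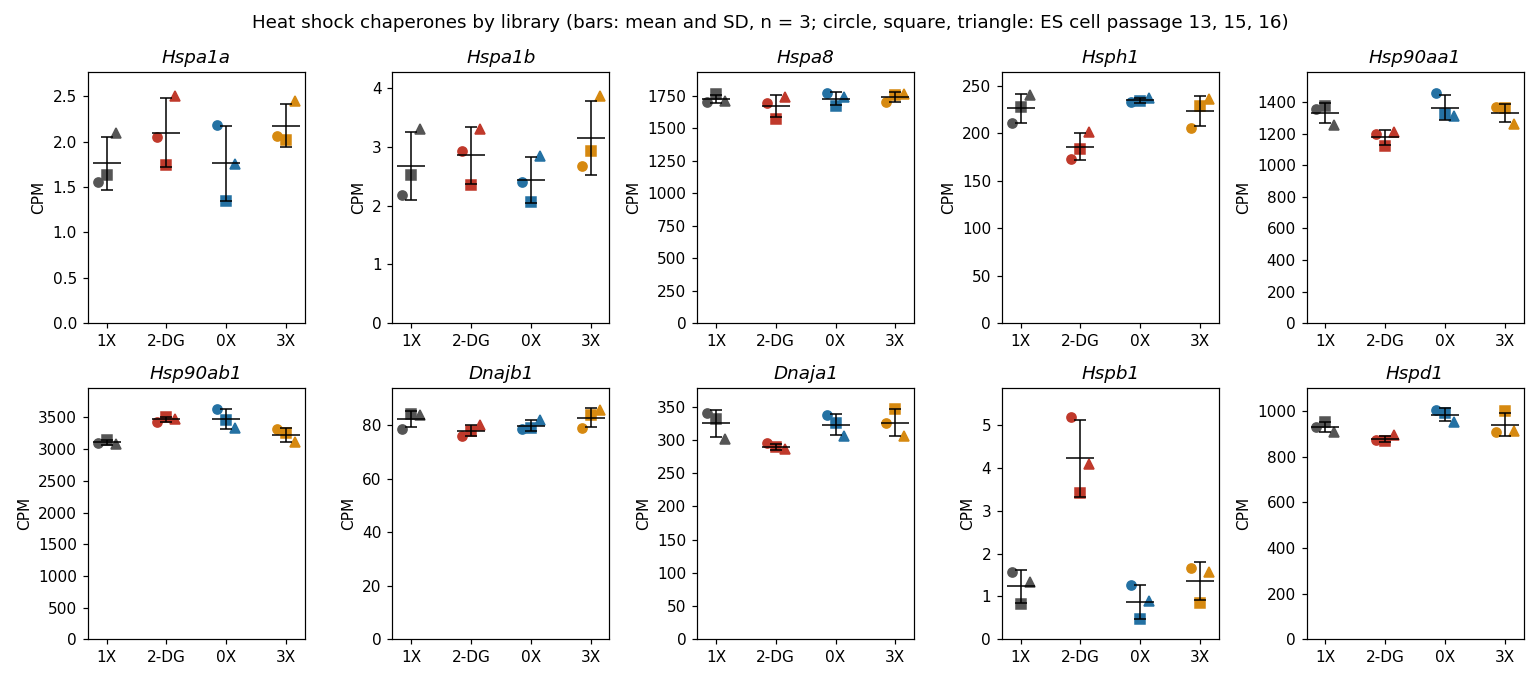
Level of each chaperone gene (y axis, CPM from 0) in the 3 libraries of each group (x axis; circle, square and triangle are ES cell passages 13, 15 and 16), with the mean and SD as a black bar. *Hspb1* stands at 3.41 to 5.18 CPM in 2-DG, above the other groups, while the abundant genes *Hspa8*, *Hsp90aa1*, *Hsp90ab1* and *Hspd1* differ little from group to group.

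The comparison of 2-DG with 1X glucose asks how the chaperones respond to the analog at the same glucose. *Hspb1* rose 3.39-fold and *Hsp90ab1* 1.12-fold, *Hsph1* fell to 0.821 of its 1X level, and no other chaperone passed the test in the fit without the passage. These are 3 of the 10 genes, where 17.6% of all 16966 genes tested passed (9.12% higher and 8.51% lower), so the count itself does not set the chaperones apart. The median log2 fold change of the 10 was -0.06, against 0.00 over all genes tested. The ranges of the groups did not overlap for 6 of the 10, against 35.4% of all genes. With the passage as a block, 5 of the 10 were called, 2 higher and 3 lower, against 41.3% of all genes (21.1% higher and 20.2% lower).

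*Hspb1* encodes HSP27, called HSP25 in the mouse, a small heat shock protein that holds unfolded proteins without ATP and binds the actin cytoskeleton. In the order of passages 13, 15 and 16, its level was 1.56, 0.816 and 1.34 CPM in 1X glucose and 5.18, 3.41 and 4.08 CPM in 2-DG. The counts behind these values were 71, 31 and 62 in 1X glucose and 177, 125 and 153 in 2-DG. Every 2-DG library thus lay above every 1X library, and the passage 15 library was the lowest of both groups. The log2 fold change was 1.76 (SE 0.36, adjusted p = 0.00843, edgeR's quasi-likelihood test), with a 95% interval of 0.97 to 2.56. Within passages 13, 15 and 16 the log2 ratio was 1.73, 2.06 and 1.61. The gene passed in all 13 alternative fits, with log2 fold changes of 1.53 to 1.96 and adjusted p of 1.3e-05 to 0.0470. Of the 50-base windows of its transcript, 58.9% also occur in the pseudogene *Hsp25-ps1*, so the origin of part of its reads cannot be settled from these counts. The same holds for *Hspa8* (73.2% of windows shared, most with *Gm15459*), *Hsp90aa1* (58.5%, *Gm12346*), *Hspd1* (44.8%, *Hspd1-ps3*) and *Dnaja1* (30.6%, *Gm15542*). Even in 2-DG, *Hspb1* remained a low gene at 4.67 CPM per kilobase, against 26.0 for *Dnajb1*, the next gene above it.

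*Hsph1*, the HSP110 nucleotide exchange factor, was the only chaperone that was called lower in the fit without the passage. Its level was 211, 228 and 241 CPM in 1X glucose and 173, 184 and 201 CPM in 2-DG, so that all 2-DG libraries lay below all 1X libraries, and passage 13 was the lowest of each group. The log2 fold change was -0.28 (SE 0.07, adjusted p = 0.0208, edgeR's quasi-likelihood test). The call was lost without 2-DG replicate 1 or 2 or 1X replicate 2 or 3 (adjusted p of 0.0573 to 0.0691), in a fit of the 2 groups alone (0.0596) and for the most abundant transcript alone (0.251), and with the passage as a block the adjusted p was 0.000232. StringTie divided the reads of this gene between 4 transcripts whose share changed between libraries of 1 group, from 7 to 804 counts for 1 of them among the 0X libraries, and the sum over transcripts does not depend on that division.

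The cytosolic HSP90 genes lay on opposite sides of 0. *Hsp90ab1*, the constitutive form, was at 3092, 3151 and 3083 CPM in 1X glucose and 3429, 3511 and 3473 CPM in 2-DG, without overlap. Its log2 fold change was 0.16 (SE 0.04, adjusted p = 0.0330, edgeR's quasi-likelihood test). The difference was present in 3 of 3 passages and its size was 0.15 to 0.17 when any of the 6 libraries was left out, but the call was lost in each of these fits (adjusted p of 0.0609 to 0.112), without the filter on low counts (0.0844) and in a fit of the 2 groups alone (0.0779). *Hsp90aa1*, the more stress-responsive form, was at 1359, 1373 and 1256 CPM in 1X glucose and 1197, 1124 and 1212 CPM in 2-DG. All 2-DG libraries were below all 1X libraries, with a log2 fold change of -0.17 (SE 0.06) that did not pass (adjusted p = 0.0662, edgeR's quasi-likelihood test). It passed with the passage as a block (0.0115), in DESeq2 (0.0241) and without 1X replicate 3 (0.0456). The ratio of the counts of *Hsp90aa1* to *Hsp90ab1* within a library, looked at after these values had been seen, was 0.427 ± 0.0174 (SD, n = 3) in 1X glucose and 0.339 ± 0.0167 in 2-DG, without overlap. The exact two-sided permutation test gave p = 0.1, the smallest that 3 against 3 libraries allow (0.154 adjusted over 20 tests of ratios).

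**Figure D2:**
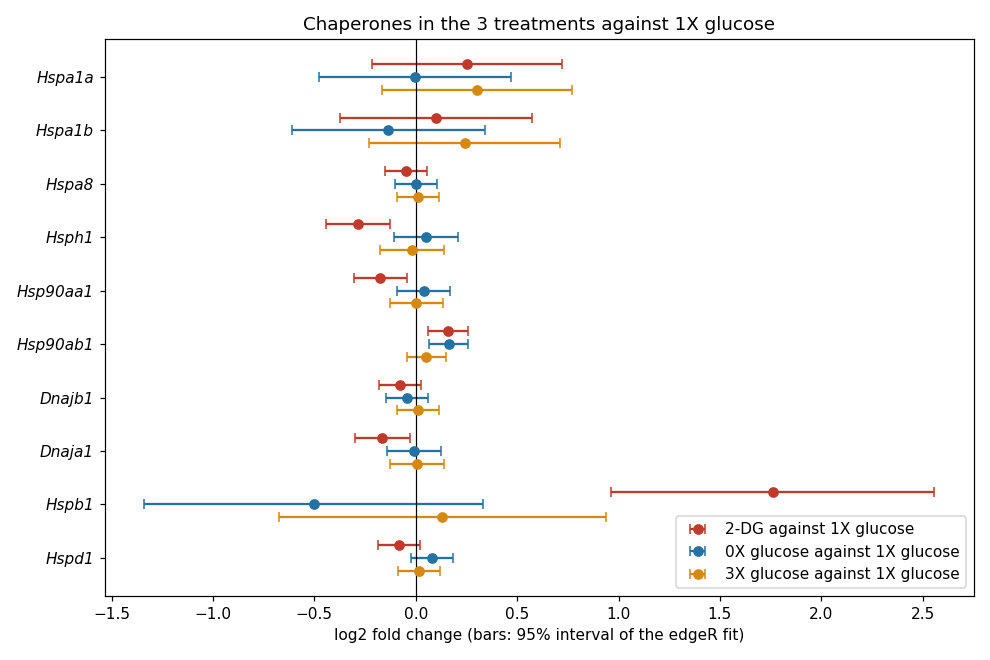
Log2 fold change of each chaperone (x axis) in 2-DG, 0X glucose and 3X glucose against 1X glucose, with the 95% interval of the edgeR fit as a bar, by gene (y axis). *Hspb1* in 2-DG, at 1.76, lies far from 0, *Hsp90ab1* lies at 0.16 in both 2-DG and 0X glucose, and the 3X glucose points of the abundant genes lie near 0.

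The HSP70 genes showed no change that passed the test. *Hspa8* was at 1707, 1765 and 1711 CPM in 1X glucose and 1695, 1574 and 1739 CPM in 2-DG, overlapping ranges, and its log2 fold change was -0.05 with a 95% interval of -0.15 to 0.05. The inducible genes were low in both groups, with overlapping ranges. *Hspa1a* was at 1.56, 1.63 and 2.10 CPM in 1X glucose and 2.05, 1.74 and 2.50 CPM in 2-DG, and *Hspa1b* at 2.17, 2.53 and 3.31 CPM and 2.93, 2.34 and 3.30 CPM. Their log2 fold changes were 0.25 (95% interval -0.22 to 0.72) and 0.10 (-0.37 to 0.57), so that changes of up to about the size of these bounds could not be told from none. The transcripts of this pair share 1716 windows of 50 bases, which is 58.8% of those of *Hspa1a* and 62.3% of those of *Hspa1b*, so their separate values are uncertain. Taken as 1 gene they gave a log2 fold change of 0.16 (adjusted p = 0.636, edgeR's quasi-likelihood test).

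The J proteins start the ATP hydrolysis of HSP70. *Dnaja1* was at 341, 332 and 302 CPM in 1X glucose and 295, 289 and 286 CPM in 2-DG, all 2-DG libraries below all 1X libraries. Its log2 fold change of -0.16 (SE 0.06) did not pass in edgeR's quasi-likelihood test (adjusted p = 0.0890) but passed with the passage as a block (0.00631), in DESeq2 (0.0494) and without 1X replicate 3 (0.0430). *Dnajb1*, the main J partner of the inducible HSP70 proteins, was at 78.8, 84.3 and 83.9 CPM in 1X glucose and 76.1, 77.9 and 80.1 CPM in 2-DG, with overlap. Its log2 fold change was -0.08 (95% interval -0.18 to 0.03). *Hspd1*, the mitochondrial chaperonin HSP60, was at 932, 953 and 907 CPM in 1X glucose and 874, 867 and 895 CPM in 2-DG. These ranges did not overlap, yet the log2 fold change of -0.08 (95% interval -0.19 to 0.02) did not pass (adjusted p = 0.257, edgeR's quasi-likelihood test). The reads of *Hspd1* were assigned mostly to 1 of its 2 transcripts in 10 libraries and mostly to the other in the passage 15 library of 3X glucose and the passage 16 library of 2-DG, where the first had 2543 and 2227 counts. The sum of both did not show this switch.

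In the rest of the cytosolic system, 8 of the 61 genes tested in 7 lists passed in 2-DG, 2 higher and 6 lower. This is 13.1% beside the 17.6% of all genes (9.12% higher and 8.51% lower). With the passage as a block 28 of the 61 passed, 4 higher and 24 lower. This is 45.9% beside 41.3% of all genes (21.1% higher and 20.2% lower). The calls in these lists with the block were thus mostly lower, whereas those over all genes were split about evenly. Of the heat shock factor list, none of the 5 genes tested passed (1 with the passage as a block). *Hsf1* and *Hsf2* had log2 fold changes of 0.10 and -0.05. The low genes *Hsf4* and *Hsf5* were at 1.35 and 0.99, and *Hsbp1*, not itself a heat shock factor, at 0.02. None of the 7 other HSP70 and HSP110 genes passed (4 with the block), among them *Hspa4*, a relative of *Hsph1*, at -0.17 (adjusted p = 0.0586, edgeR's quasi-likelihood test; 0.00229 with the block). Of 10 other cytosolic J proteins, 3 fell and none rose, *Dnajb6* by 0.32, *Dnajc2* by 0.36 and *Dnaja2* by 0.20 on the log2 scale (5 fell with the block), where 8.51% of all genes were called lower and 20.2% with the block. *Dnajb6* passed in 6, *Dnajc2* in 5 and *Dnaja2* in 4 of the 6 fits that each left out 1 library. Of the HSP70 co-chaperones 2 of 10 rose, the exchange factor *Bag3* by 0.71 (edgeR's quasi-likelihood test, adjusted p = 0.0474) and the ubiquitin ligase *Stub1* by 0.19 (0.0482). With the block 2 rose and 3 fell. Of all genes, 9.12% were called higher, and 21.1% with the block. *Bag3* passed in 1 and *Stub1* in 0 of the 6 fits without a library. *Stip1*, which links HSP70 with HSP90, was at -0.11 and did not pass.

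Of 12 HSP90 co-chaperones, 1 fell, the immunophilin *Fkbp5*, by 0.40 on the log2 scale (edgeR's quasi-likelihood test, adjusted p = 0.00615), and 4 fell with the passage as a block. Beside these counts and the next, 8.51% of all genes were called lower and 9.12% higher. With the block these shares were 20.2% and 21.1%. Of 14 subunits of CCT and prefoldin, which fold actin and tubulin, the prefoldin subunits *Pfdn2* and *Pfdn6* fell by 0.35 and 0.37, and 7 fell with the block. The 12 other mitochondrial chaperones and proteases held 1 gene that rose, *Clpx* (0.19), and 1 that fell, *Clpp* (-0.23), both subunits of the same matrix protease (3 and 2 with the block). *Clpx* passed in 0, *Clpp* in 1 and *Fkbp5*, *Pfdn2* and *Pfdn6* in 6 of the 6 fits without a library. For the most abundant transcript alone, the calls of *Dnajb6*, *Dnajc2*, *Bag3*, *Stub1*, *Pfdn2*, *Clpp* and *Clpx* were lost (adjusted p of 0.117 to 0.936, edgeR's quasi-likelihood test), and *Clpx* then had a log2 fold change of -0.49. *Hspe1*, the HSP10 partner of *Hspd1*, and *Hspa9*, the mitochondrial HSP70, were at -0.15 and 0.09 and did not pass. Of the 8 other small heat shock proteins, only 3 were high enough to be tested and none passed (2 fell with the block). The list medians ran from -0.37 for those 3 to 0.10 for the heat shock factors, beside 0.00 over all genes tested.

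**Figure D3:**
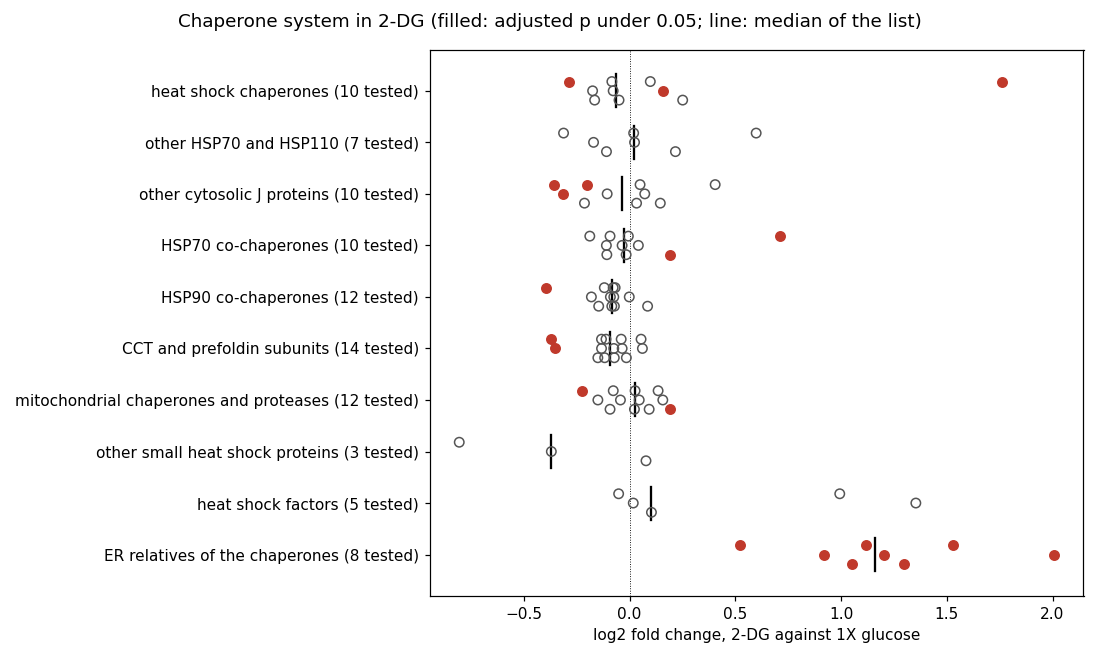
Log2 fold change in 2-DG against 1X glucose (x axis) of every tested gene of the chaperone lists (y axis), filled where the adjusted p was under 0.05, with a line at the median of each list. The genes of the ER list lie between 0.52 and 2.01 (*Sdf2l1*, which is outside the chaperone families), all filled. The medians of the cytosolic and mitochondrial lists lie between -0.37 and 0.10.

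The ER list, which holds relatives of the same families and *Sdf2l1*, an ER protein outside these families, differed from this. All 8 genes rose in 2-DG, with log2 fold changes of 0.52 to 2.01 and a median of 1.16, where 9.12% of all genes were called higher. The largest change was that of *Sdf2l1*, and the largest among the relatives was that of *Dnajc3*. *Dnajc3*, an ER J protein, rose by 1.53 (adjusted p = 2.34e-05), *Hyou1* by 1.21, *Hspa5* by 1.12 and *Hsp90b1* by 1.05 (edgeR's quasi-likelihood test). Of the 8, 7 passed in each of the 6 fits without a library, and *Hspa13*, the gene with the smallest change, in 2 of them. For the most abundant transcript alone *Hyou1* (adjusted p = 0.669) and *Hspa13* (0.761) did not pass in edgeR's quasi-likelihood test. The ratio of the counts of a relative in the ER to its cytosolic partner shows the difference within each library. *Hspa5* to *Hspa8* was 0.362 ± 0.0124 (SD, n = 3) in 1X glucose and 0.815 ± 0.107 in 2-DG. *Hsp90b1* to *Hsp90ab1* was 0.234 ± 0.00598 and 0.436 ± 0.0489. The ratio of *Hyou1* to *Hsph1*, the relatives of the HSP110 type, had the largest fold difference of the 4, 1.10 ± 0.00960 against 3.13 ± 0.518, and that of *Dnajb11* to *Dnajb1* was 0.932 ± 0.0165 and 1.87 ± 0.219. The groups did not overlap in any of these 4 ratios, each with p = 0.1 in the exact two-sided permutation test, the smallest possible (0.154 adjusted over 20 tests of ratios). The same p was reached by smaller differences without 2-DG. *Dnajb11* to *Dnajb1* was 1.14-fold higher in 0X and *Hyou1* to *Hsph1* 1.04-fold higher in 3X than in 1X glucose, both without overlap.

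**Figure D4:**
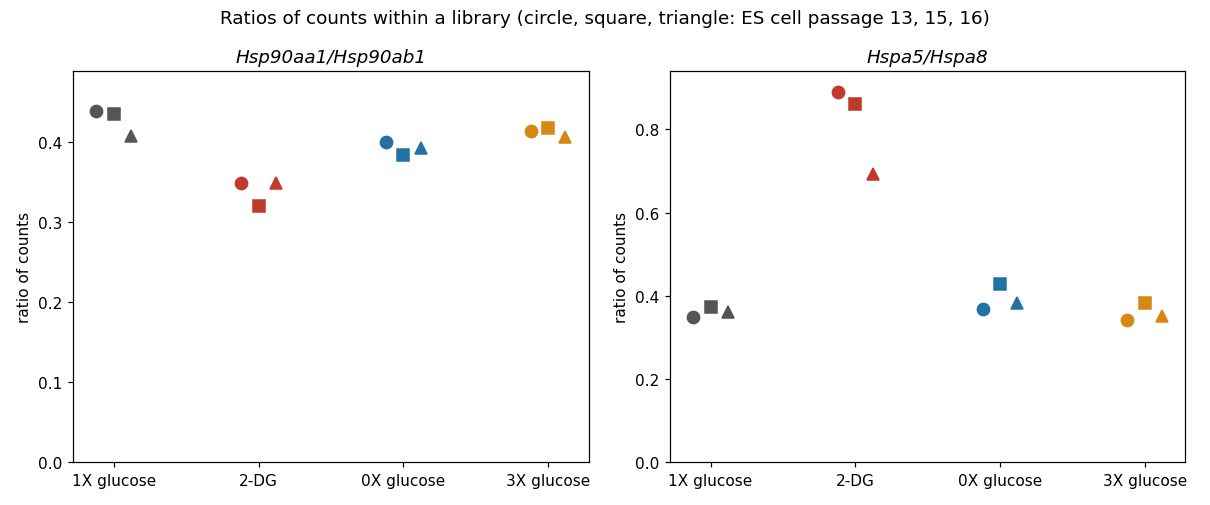
Ratio of counts within a library (y axis, from 0) of *Hsp90aa1* to *Hsp90ab1* (left) and of *Hspa5* to *Hspa8* (right) in each group (x axis; circle, square and triangle are ES cell passages 13, 15 and 16). In 2-DG the first ratio is lower, at 0.339 on average against 0.427 in 1X glucose, and the second higher, at 0.815 against 0.362.

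Without glucose no chaperone passed the test against 1X glucose, where 0.0118% of all genes did (306 of the 16966 genes had an unadjusted p under 0.05 in edgeR). DESeq2 also called none of the 10, nor did the passage block, with which 0.0177% of all genes passed. The median log2 fold change of the 10 was -0.001, against 0.001 over all genes. *Hsp90ab1* was at 3641, 3456 and 3338 CPM in 0X glucose, all above the 3083 to 3151 CPM of 1X glucose, and was the only chaperone whose groups did not overlap, against 5.63% of all genes. Its log2 fold change of 0.16 (SE 0.04) was the same size as in 2-DG, which was compared with the same 1X libraries, with an adjusted p of 1.00 (edgeR's quasi-likelihood test). The ratio of *Hsp90aa1* to *Hsp90ab1* was 0.392 ± 0.00817 in 0X glucose, below all 1X values. *Hspb1* was at 1.26, 0.478 and 0.894 CPM in 0X glucose, on 40, 16 and 29 counts, and lower than 1X glucose in 3 of 3 passages with overlapping ranges. Its log2 fold change was -0.50 with a 95% interval of -1.34 to 0.33. The remaining log2 fold changes lay between -0.13 for *Hspa1b* and 0.08 for *Hspd1*. None of the 8 genes of the ER list passed in 0X glucose either, with a median of 0.12.

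In 3X glucose no chaperone and no gene at all (0%) passed against 1X glucose in edgeR's quasi-likelihood test, where 178 genes had an unadjusted p under 0.05, and DESeq2 called 2 genes, none of them among the 10. The median of the 10 was 0.01, against 0.00 over all genes. The abundant members differed least. The log2 fold changes of *Hspa8*, *Hsph1*, *Hsp90aa1*, *Hsp90ab1*, *Dnajb1*, *Dnaja1* and *Hspd1* lay between -0.02 and 0.05, and the widest of their 95% intervals, that of *Hsph1*, ran from -0.17 to 0.14. *Hspa1a* was at 2.06, 2.01 and 2.45 CPM and *Hspa1b* at 2.67, 2.93 and 3.86 CPM in 3X glucose, higher than 1X glucose in 3 of 3 passages each, though the ranges overlapped, as they did for all 10 chaperones (4.47% of all genes did not overlap). Their log2 fold changes were 0.30 (95% interval -0.17 to 0.77) and 0.24 (-0.23 to 0.71). *Hspb1* was at 1.65, 0.853 and 1.57 CPM, with a log2 fold change of 0.13 (-0.68 to 0.94).

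The comparison of 2-DG with 0X glucose sets the analog beside the removal of glucose. Of the 10 chaperones 4 differed, 1 higher and 3 lower in 2-DG, where 18.9% of all genes differed (9.86% higher and 9.04% lower). The groups did not overlap for 5 of the 10, against 37.9% of all genes. With the passage as a block 1 was higher and 4 were lower, where 43.1% of all genes differed, 21.5% in either direction. *Hspb1* was 4.80-fold higher in 2-DG (log2 fold change 2.26, SE 0.38, adjusted p = 0.00282, edgeR's quasi-likelihood test), without overlap. *Hsph1* was at 233, 234 and 238 CPM in 0X glucose, the narrowest range of the 4 groups for this gene, and its log2 fold change in 2-DG was -0.34 (adjusted p = 0.00899). *Hsp90aa1* (-0.21, adjusted p = 0.0296) and *Hspd1* (-0.16, 0.0346) were also called lower by edgeR's quasi-likelihood test, in 3 of 3 passages. Leaving out any 1 library other than 0X replicate 3 ended both calls, with adjusted p of up to 0.115 and 0.109. *Dnaja1*, at -0.16, passed with the passage as a block (0.00776) and not without it (0.0976). *Hsp90ab1* overlapped between the groups, with a log2 fold change of -0.00 and a 95% interval of -0.10 to 0.10. Between 3X and 0X glucose no chaperone passed, where 0.0118% of all genes did (734 with an unadjusted p under 0.05 in edgeR, and none of the 10 in DESeq2), nor with the passage block (0.802% of all genes). There, 5 of the 10 lay on the same side in 3 of 3 passages, beside 4 of the 10 in both 0X and 3X against 1X glucose. The share of all genes that did so was not counted. *Hspb1* (0.63, 95% interval -0.20 to 1.47), *Hspa1b* and *Dnajb1* were higher and *Hsp90ab1* (-0.11, -0.21 to -0.01) and *Hsph1* lower in 3X glucose. *Hsp90ab1* was the 1 chaperone without overlap, against 9.01% of all genes.

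The ES cell passage, which crosses the treatments, also moved with some chaperones. The 4 libraries of a passage are also those of 1 replicate, so that passage, plate and experiment cannot be told apart, and the p-values between passages measure only the spread between these libraries. Any difference between passages, with the treatment held, was called for *Hspb1*, *Hsph1*, *Hspa1b*, *Dnaja1* and *Dnajb1* (adjusted p of 0.0015 to 0.0370, edgeR's quasi-likelihood test), 5 of the 10, where 46.2% of all genes were called. Against passages 15 and 16 together, passage 13 had more *Hspb1* (log2 fold change 0.59, SE 0.12, adjusted p = 0.0021) and less *Hsph1* (-0.13, SE 0.03, 0.00457) and *Dnajb1* (-0.07, SE 0.02, 0.0189, edgeR's quasi-likelihood test), where 46.1% of all genes differed, 23.3% higher and 22.8% lower. The call of *Dnajb1* was lost without 1X replicate 1 or 2 or 3X replicate 1 (adjusted p of 0.0510 to 0.128, edgeR's quasi-likelihood test). DESeq2 and the fit of the most abundant transcript alone did not call *Dnajb1* either. Without 2-DG replicate 3 the count of chaperones rose from 3 to 5, where 7853 of 17213 genes were called. Without the 2-DG libraries 4 chaperones were called, where 7671 of 16630 genes were.

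Passage 16 had more *Hspb1* (log2 fold change 0.62, SE 0.14, adjusted p = 0.0416) and *Hspa1b* (0.43, SE 0.11, 0.0486, edgeR's quasi-likelihood test) than passage 15, 2 of the 10, where 4.2% of all genes differed and 2.19% were higher. These calls were close to the threshold. The *Hspa1b* call was lost without any 1 library other than 2-DG replicate 1 (adjusted p of up to 0.162). That of *Hspb1* was lost without any other than 2-DG replicates 1 and 2 and 0X replicate 1 (up to 0.154), and DESeq2 called neither. *Hspa1a* had a log2 fold change of 0.39 (adjusted p = 0.134), and as 1 gene the pair *Hspa1a* and *Hspa1b* had 0.42 (0.0498, edgeR's quasi-likelihood test). In all 4 treatments the passage 15 library had the lowest *Hspb1* level, and in all 4 the passage 16 library had the highest *Hspa1b* level. The differences of *Hspb1* between passages were smaller than its difference between 2-DG and 1X glucose.

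Across the 12 libraries the chaperones did not move as 1 group, which is given as a description over libraries that share treatments and passages. Pearson's r of the log2 CPM was highest for *Hsp90aa1* with *Dnaja1* (0.888) and 0.823 for *Hspa1a* with *Hspa1b*, whose reads overlap. It was lowest for *Hsph1* with *Hspb1* (-0.841). The genes outside the 10 whose log2 CPM followed the mean of the scaled chaperone values most closely over the 12 libraries were *Bc1* (r = 0.884), *Rbm34* (0.881), *Snx7* (0.868), *Sap30l* (0.861) and *Kcna3* (0.855). They had the highest r in a search through the 16966 genes tested, and how high r would reach by chance in such a search was not tested. As the 10 did not move together, their mean is not a pattern that they share.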

How the data were processed

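The authors deposited, for each of the 12 libraries, estimated counts of 120312 RefSeq transcripts, all whole numbers. Per the labels and methods they used a directional polyA kit, Trim Galore, HISAT2, SAMtools, Picard and StringTie on mm10; versions and the strand setting are not given in the sources used here. Transcripts were assigned to genes with the RefSeq table of GRCm38.p6 (100.0% of counts) and summed. The authors' 3 tables of differential expression (DESeq2) were not used.

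All 12 libraries entered 1 fit of the 4 groups in edgeR 4.0.16 under R 4.3.3 (TMM, filterByExpr, glmQLFit, glmQLFTest), two-sided, with Benjamini-Hochberg adjustment over the 16966 genes tested and a threshold of 0.05. The study names no covariate, so the main fit left out the passage, and the fit with the passage as a block was an alternative. The permutation tests of ratios did not pair the libraries either. Passages were tested with the treatment as a factor. Standard errors were taken from the F statistic. The script was tested on simulated counts. Replicate numbers 1, 2 and 3 are ES cell passages 13, 15 and 16, which pair the libraries: deviations from group means correlated at 0.0963 to 0.623 in 18 same-passage pairs and at no more than 0.191 in 36 others. At most 9.67% of values were identical between any 2 libraries. The labels do not say more on how far the libraries are independent, so p-values measure the spread between them.

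Alternatives were median-of-ratios factors, no filter, the passage as a block, DESeq2 1.42.0, only the groups compared, the most abundant transcript alone, *Hspa1a* and *Hspa1b* as 1 gene, leaving out each library and, for passages, leaving out the 2-DG libraries. The 10 genes were always named. From each other list up to 3 called genes with the smallest adjusted p in 2-DG were named, besides *Hsf1*, *Hsf2*, *Hspe1*, *Hspa9*, *Hspa4*, *Bag3*, *Stip1*, *Hspa5*, *Hsp90b1* and *Hyou1*. *Hspa13*, *Dnajb11*, *Sdf2l1*, *Hsf4*, *Hsf5*, *Hsbp1*, *Nkx6-1*, *Tfcp2l1* and the called streak, mesoderm and immediate early genes were added after their values were seen. The genes and lists were chosen with earlier results of these data known.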

Additional observations from a re-analysis of the deposited data

How the results depend on the processing

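In 2-DG against 1X glucose, 3 chaperones were called, 1 in a fit of only the groups compared and 1 to 3 when a library was left out. DESeq2 and the passage as a replicate block each called 5. Of all 16966 genes, DESeq2 called 3686 and the block 7001, against 2990 in the main fit. In 2-DG against 0X glucose, 4 were called, 2 without the filter on low counts, 1 with the most abundant transcript alone, 2 with only the groups compared and 2 to 4 without a library. Between passage 13 and the others, 3 were called, 1 with the most abundant transcript alone and 2 to 5 without a library. DESeq2 called 1 higher and 1 lower there. Between passages 16 and 15, 2 were called, 0 without the filter, with DESeq2 and with the most abundant transcript alone, 1 without the 2-DG libraries and 0 to 2 without a library. Against 1X glucose, 0X and 3X glucose gave 0 calls in every alternative, as did 3X against 0X glucose. The *Hspb1* call in 2-DG kept its side of the threshold in all 13 alternatives.

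The log2 fold change of *Hspa1b* in 2-DG against 1X glucose ran from -0.031 to 0.281 without a library. That of *Hsp90ab1* in 2-DG against 0X glucose was 0.0022 without the filter, 0.0019 with the most abundant transcript alone and -0.032 to 0.034 without a library. Over all comparisons of the 10 genes, 69 of 1003 values changed sign, none of them called in either fit. The causes were not tested. Besides the calls of *Hsp90aa1* and *Dnaja1* given with the results, the replicate block changed no call of the 10 genes.

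Over all genes, 2990 differed between 2-DG and 1X glucose, 7001 with the block and 3686 with DESeq2. The count was 653 with the most abundant transcript alone, 1896 with only the groups compared and 1734 to 2352 without a library. Between 2-DG and 0X glucose these counts were 3207, 7305 with the block, 3866 with DESeq2 and 775 with the most abundant transcript alone. They were 2583 of 26382 genes without the filter, 2348 with only the groups compared and 2051 to 2619 without a library. In 0X against 1X glucose 2 genes became 0 to 12, in 3X against 1X glucose 0 became 0 to 2, and in 3X against 0X glucose 2 became 136 with the block and 32 with DESeq2. Between passage 13 and the others 7828 became 2570 with the most abundant transcript alone, 6728 with DESeq2 and 6001 to 7853 without a library. Between passages 16 and 15, 713 became 8 with the most abundant transcript alone, 326 without the filter and 870 with DESeq2. It became 1328 without the 2-DG libraries and 76 to 1410 without a library.

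With 3 libraries a group, an exact permutation test cannot go below p = 0.1, and *Hspb1*, *Hspa1a* and *Hspa1b* rest on 16 to 177 counts a library. Intervals of the low genes were wide, and what made them so was not tested. They come from the fit without the passage. The common dispersion, edgeR's estimate of the spread between libraries, was 0.0316 in that fit and 0.0063 with the passage as a block.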
